A study of Rattus norvegicus with 28 samples.

Results

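Transcripts of 8 genes of cell proliferation were followed through 7 groups of rat samples: Mki67 (ENSRNOG00000028137), Top2a (ENSRNOG00000053047), Cdk1 (ENSRNOG00000000632), Ccnb1 (ENSRNOG00000058539), Ccna2 (ENSRNOG00000015423), Pcna (ENSRNOG00000021264), Ccnd1 (ENSRNOG00000020918) and Myc (ENSRNOG00000004500). They were picked by name, and no measured value enters the rule, but the choice was made with earlier results of these data known. They are 8 of the 32545 genes in the count table. All 8 were among the 14282 genes that passed the low count filter. The table gives identifiers without symbols, and 0 of its identifiers matched the gene table used here, so each symbol rests on the identifier it was listed with.

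The RNA came from samples labelled as neural progenitor cells (NPCs), the dividing precursors of neurons and glia. Of the 28 libraries, 4 each came from NPCs exposed to injured spinal cord and labelled 2, 3 or 4 weeks, 4 each from NPCs exposed to spinal cord with no injury named, here called uninjured, at the same 3 times, and 4 from NPCs under culture conditions. Below, injured cord and uninjured cord are short for the samples labelled as NPCs exposed to them. Strain, age, sex, the route of exposure and any separation of NPCs from cord tissue are not given in the labels, nor whether the 4 libraries of a group stem from different animals, so the spread behind each p-value may be technical. RNA of NPCs and of the cord around them thus cannot be told apart. The labelled cell type was not checked against its marker genes, because no identifier outside the 8 could be named. In such bulk samples, fewer dividing cells and less RNA per dividing cell cannot be told apart.

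The 8 week 2 libraries held 84532 to 446331 counts and the other 20 held 2605188 to 6908508, so week 2 and low depth cannot be told apart. Injured week 3 replicate 3 detected 11544 genes, against 15292 to 15583 in the other 3 libraries of its group. It had 0 counts of Myc, counted here as missing, and counts of the other 7 genes. That library was left out of the fit, and its levels are given beside those of the others. Levels are in CPM, per-million counts of a library total scaled by TMM, a trimmed mean of ratios between libraries. Means ± SD of injured week 3 are over 3 libraries and those of every other group over 4.

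Cells that divide pass through G1, copy their DNA in S phase, prepare in G2 and separate their chromosomes in mitosis. Cyclins bind and switch on cyclin-dependent kinases at each step: cyclin D1 (Ccnd1) in G1 in answer to growth signals, cyclin A2 (Ccna2) in S and G2, and cyclin B1 (Ccnb1) with the kinase Cdk1 at entry into mitosis. Topoisomerase II alpha (Top2a) untangles replicated chromosomes, and Ki-67 (Mki67) coats them in mitosis and is the usual stain for cycling cells. PCNA is the ring that holds DNA polymerases on the template and also serves in DNA repair, which non-dividing cells need too. The transcription factor Myc drives growth and entry into the cycle, and its own transcript varies little with cycle phase in dividing cells. Neural progenitors divide in culture with growth factors and leave the cycle as they differentiate.

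In injured against uninjured cord at week 3, 7 of the 8 genes were higher in injured cord and 1, Pcna, was lower. The 2 groups did not overlap for any of them. Of all genes tested, 46.0% were called in either direction at an adjusted p under 0.05, 20.7% higher and 25.3% lower, and 58.2% did not overlap. The median log2 fold change of the 8 genes was 4.52, against 0.0070 over all 14282 genes. The plot of levels by library shows all 8 genes in each group.

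**Figure D1:**
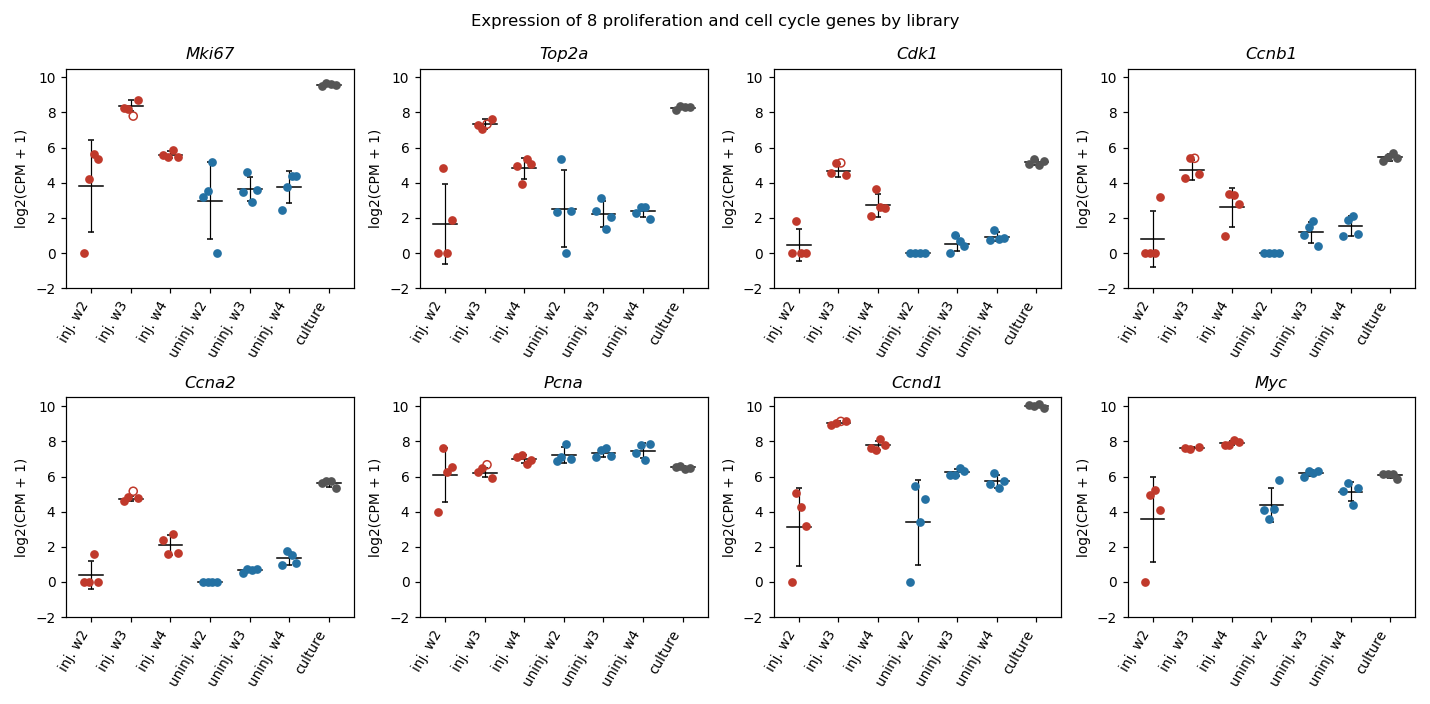
Levels of the 8 genes as log2(CPM + 1) on the y axis, by group on the x axis (inj., injured cord; uninj., uninjured cord; w, week). Filled points are single libraries, the open point is injured week 3 replicate 3, and bars are the mean ± SD of the filled points. Mki67 was high in culture, lower in injured week 3 and lowest in uninjured weeks 2 and 3, while Pcna spanned a narrow range.

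The genes of S, G2 and mitosis set the 2 week 3 groups furthest apart. Mki67 had 303, 292 and 425 CPM in injured week 3 libraries, and 221 CPM in replicate 3, against 10.2, 23.0, 6.63 and 11.0 CPM in uninjured ones. Every injured library, replicate 3 included, stood far above the highest uninjured library. The log2 fold change was 4.76 (standard error, SE, 0.41; edgeR adjusted p = 3.09e-13). Top2a had 157, 132 and 196 CPM, and 160 CPM in replicate 3, against 4.20, 7.67, 1.58 and 3.22 CPM in uninjured libraries, a log2 fold change of 5.27 (SE 0.46, edgeR adjusted p = 5.4e-13). Again no library of one group reached the range of the other.

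Cdk1, the kinase that starts mitosis, had 22.1, 33.8 and 20.4 CPM in injured week 3 libraries, and 34.0 CPM in replicate 3. In uninjured week 3 libraries it had 0, 1.05, 0.631 and 0.322 CPM, from 6 counts over the whole group. Its log2 fold change of 5.86, with an SE of 0.57, was the largest of the 8 (edgeR adjusted p = 1.83e-11) and thus rests on near absence in uninjured cord. Cyclin B1, its partner, had 18.5, 41.1 and 21.9 CPM, and 41.0 CPM in replicate 3, against 1.05, 1.74, 2.52 and 0.322 CPM in uninjured libraries. Relative to their mean, the injured libraries varied more for Ccnb1 than for the other mitotic genes, but the lowest of them was still above all uninjured ones (log2 fold change 4.28, SE 0.54, edgeR adjusted p = 1e-08). Ccna2 had 23.5, 27.6 and 26.8 CPM, and 34.8 CPM in replicate 3, against 0.450 to 0.697 CPM in uninjured libraries. Its log2 fold change was 5.39 (SE 0.48, edgeR adjusted p = 1.83e-12), from 9 counts over the uninjured group.

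The G1 genes were less far apart. Ccnd1 had 486, 523 and 566 CPM in injured week 3 libraries, and 563 CPM in replicate 3, against 66.0, 65.9, 89.6 and 78.0 CPM in uninjured ones. The groups were tight and separate, with a log2 fold change of 2.81 (SE 0.32, edgeR adjusted p = 3.89e-10). Myc had 196, 187 and 205 CPM in the 3 injured libraries with a value, against 60.8, 77.4, 72.6 and 78.6 CPM in uninjured ones, a log2 fold change of 1.44 (SE 0.29, edgeR adjusted p = 6.85e-05). With replicate 3 in the fit as a true 0, the Myc log2 fold change was 1.18 and did not pass the test (edgeR adjusted p = 0.233).

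Pcna went the other way. It had 74.3, 87.8 and 60.4 CPM in injured week 3 libraries, and 100.9 CPM in replicate 3, against 139, 179, 192 and 143 CPM in uninjured ones, a log2 fold change of -1.14 (SE 0.32, edgeR adjusted p = 0.00305). On the TMM scale all injured libraries, replicate 3 included, lay below all uninjured ones. The TMM factor of replicate 3 was 2.01, against 1.02 to 1.06 in the other injured week 3 libraries. Per unscaled library total, replicate 3 lay above all uninjured week 3 libraries, so its place depends on that factor. With replicate 3 in the fit the log2 fold change was -0.83 and missed the threshold (edgeR adjusted p = 0.06). How reads shared with near-identical copies were counted is not given in the sources used here, which leaves counts of a gene with such copies uncertain.

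Promoters are shown for the genes that moved together at week 3 and for Pcna, which did not, with the letters of a pair of elements known from cell cycle promoters. The CCAAT box binds NF-Y, and the cell cycle genes homology region (CHR) is bound by the DREAM complex, which silences cell cycle genes in resting cells. RefSeq promoters of build GRCr8, each 250 bases before to 50 bases after the annotated start, were matched by symbol for 5 of the 8 genes, and none was matched for Ccna2, Ccnd1 or Myc. They lie at chr1:199952544-199952843 (minus strand) for Mki67, chr10:84473044-84473343 (minus) for Top2a, chr20:19265043-19265342 (plus) for Cdk1, chr2:33655176-33655475 (minus) for Ccnb1 and chr3:139955771-139956070 (minus) for Pcna. Sequences run 5′ to 3′ along the gene, with every CCAAT and every TTTGAA or TTTAAA, on either strand, in capitals.
Mki67: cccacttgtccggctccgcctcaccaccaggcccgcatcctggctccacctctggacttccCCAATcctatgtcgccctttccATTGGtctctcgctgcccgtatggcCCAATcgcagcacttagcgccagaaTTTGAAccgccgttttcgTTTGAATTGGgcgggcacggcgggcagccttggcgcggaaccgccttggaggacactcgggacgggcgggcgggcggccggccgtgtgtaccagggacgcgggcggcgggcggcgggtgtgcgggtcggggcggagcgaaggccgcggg
Top2a: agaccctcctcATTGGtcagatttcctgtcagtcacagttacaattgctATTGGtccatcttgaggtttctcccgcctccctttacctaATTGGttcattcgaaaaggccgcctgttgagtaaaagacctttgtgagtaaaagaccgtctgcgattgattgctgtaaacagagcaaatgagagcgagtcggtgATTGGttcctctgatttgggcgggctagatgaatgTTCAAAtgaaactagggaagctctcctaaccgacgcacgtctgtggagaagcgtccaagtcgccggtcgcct
Cdk1: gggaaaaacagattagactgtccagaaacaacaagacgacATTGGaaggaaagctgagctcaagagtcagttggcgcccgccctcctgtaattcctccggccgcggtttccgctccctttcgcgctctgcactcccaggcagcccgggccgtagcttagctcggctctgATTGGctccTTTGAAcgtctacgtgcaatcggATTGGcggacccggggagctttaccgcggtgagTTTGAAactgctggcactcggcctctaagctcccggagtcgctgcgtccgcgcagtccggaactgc
Ccnb1: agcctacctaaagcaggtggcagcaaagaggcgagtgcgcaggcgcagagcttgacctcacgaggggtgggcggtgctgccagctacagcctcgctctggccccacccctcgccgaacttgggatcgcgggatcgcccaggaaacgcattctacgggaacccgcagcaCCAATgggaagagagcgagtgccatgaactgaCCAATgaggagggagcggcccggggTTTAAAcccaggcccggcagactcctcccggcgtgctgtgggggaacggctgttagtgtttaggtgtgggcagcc
Pcna: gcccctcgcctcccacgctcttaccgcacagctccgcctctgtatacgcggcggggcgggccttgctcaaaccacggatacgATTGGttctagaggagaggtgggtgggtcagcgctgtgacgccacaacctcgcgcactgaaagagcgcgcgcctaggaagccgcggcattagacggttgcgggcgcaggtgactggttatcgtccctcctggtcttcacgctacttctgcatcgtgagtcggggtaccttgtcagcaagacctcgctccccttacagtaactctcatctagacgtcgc

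The search counted both strands. CCAAT occurred 4 times in the Mki67 promoter, 4 times in Top2a, 3 times in Cdk1, 2 times in Ccnb1 and 1 time in Pcna. Of 33469 rat promoters of this length, 37.5% held it at least 1 time and 11.2% at least 2 times. The CHR letters occurred 2 times in Mki67, 1 time in Top2a, 2 times in Cdk1, 1 time in Ccnb1 and 0 times in Pcna, against 28.3% of all promoters with at least 1. Mki67, Top2a, Cdk1 and Ccnb1 thus held both kinds of match, as did 11.3% of all promoters. In the Mki67 promoter, 1 CHR match shares a base with a CCAAT match. CHR matches nearest the start ended 17 bases before it in Top2a (base -17), at base -11 in Cdk1 and at base -20 in Ccnb1, each downstream of a CCAAT match, and at base -94 in Mki67. An E2F site searched as TTTNNCGC was found 2 times in Cdk1 and 0 times in the other 4, against 4.92% of promoters with at least 1, and the E-box CACGTG that the Myc protein can bind was found in 0 of the 5, against 6.42%. These are matches of letters in short windows, and binding was not measured.

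**Figure D2:**
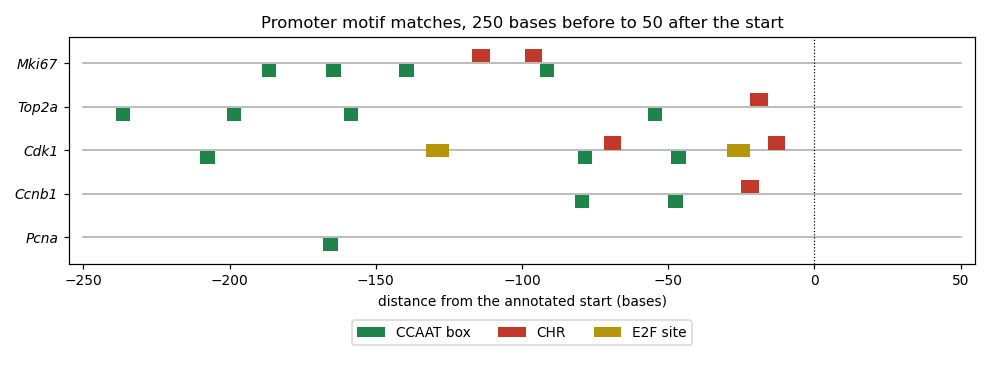
Positions of CCAAT, CHR and E2F letter matches in the RefSeq promoters of 5 genes, with the distance from the annotated start in bases on the x axis and 1 gene per line on the y axis. Mki67, Top2a, Cdk1 and Ccnb1 hold both CCAAT and CHR matches, and Pcna holds 1 CCAAT match.

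At week 4 the same comparison gave smaller differences for the mitotic genes and a larger one for Myc. In injured against uninjured cord, 6 of 8 genes were higher and 0 lower, where 27.3% of all genes were called, 12.1% higher and 15.2% lower. The groups did not overlap for 5 of the 8 and for 36.4% of all genes. Mki67 had 46.7, 43.1, 57.3 and 42.4 CPM in injured week 4 libraries, against 4.51, 12.3, 19.9 and 20.0 CPM in uninjured ones. The injured libraries were close together and all above the uninjured ones (log2 fold change 1.74, SE 0.37, edgeR adjusted p = 0.000236). Top2a had 30.1, 14.1, 39.5 and 32.0 CPM against 3.87, 5.08, 5.26 and 2.82 CPM in uninjured libraries, with a log2 fold change of 2.77 (SE 0.44, edgeR adjusted p = 2.65e-06).

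Cdk1 had 3.24, 11.4, 5.16 and 4.88 CPM in injured week 4 libraries, against 0.645, 1.45, 0.751 and 0.846 CPM in uninjured ones, again without overlap (log2 fold change 2.62, SE 0.54, edgeR adjusted p = 0.000169). Ccnb1 had 0.972, 9.32, 8.77 and 5.80 CPM against 0.967, 2.66, 3.38 and 1.13 CPM in uninjured libraries. Here 1 injured library lay within the uninjured range, and the log2 fold change of 1.61 (SE 0.54, edgeR adjusted p = 0.0211) rests on few counts. Leaving out injured week 4 replicate 2 or 3, or uninjured week 4 replicate 1 or 4, ended that call (edgeR adjusted p = 0.0782, 0.0949, 0.0771 and 0.0775), as did injured week 3 replicate 3 in the fit (edgeR adjusted p = 0.0895). Ccna2 stood at 4.21, 2.07, 5.67 and 2.14 CPM in injured and 0.967, 2.42, 1.88 and 1.13 CPM in uninjured libraries, which overlap. Its log2 fold change of 1.13 (95% interval 0.18 to 2.07) missed the threshold (edgeR adjusted p = 0.0695), but passed with DESeq2 (adjusted p = 0.0226) and in the edgeR fit without the week 2 libraries (adjusted p = 0.0116). Those fits called 36.3% and 46.1% of all genes, in place of 27.3%.

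Ccnd1 had 198, 182, 281 and 225 CPM in injured week 4 libraries, against 46.7, 72.3, 39.8 and 53.0 CPM in uninjured ones, a log2 fold change of 2.06 (SE 0.30, edgeR adjusted p = 3.59e-07). Myc had 219, 224, 266 and 254 CPM, the highest levels of this gene in the series, against 35.1, 48.1, 19.5 and 39.8 CPM in uninjured week 4 libraries. Its log2 fold change of 2.75, with an SE of 0.29, passed with the smallest p of the 8 at this week (edgeR adjusted p = 3.03e-10), and also with injured week 3 replicate 3 in the fit (edgeR adjusted p = 0.0152). Pcna stood at 135.8, 149.7, 102.9 and 121.1 CPM in injured and 163.5, 216.8, 119.7 and 231.9 CPM in uninjured libraries, with overlap, and did not pass (log2 fold change -0.52, 95% interval -1.10 to 0.06, edgeR adjusted p = 0.183). It was called lower in injured cord in the edgeR fit without the week 2 libraries (adjusted p = 0.0167) and with limma voom (adjusted p = 0.00119). There 46.1% and 45.9% of all genes were called, in place of 27.3%.

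**Figure D3:**
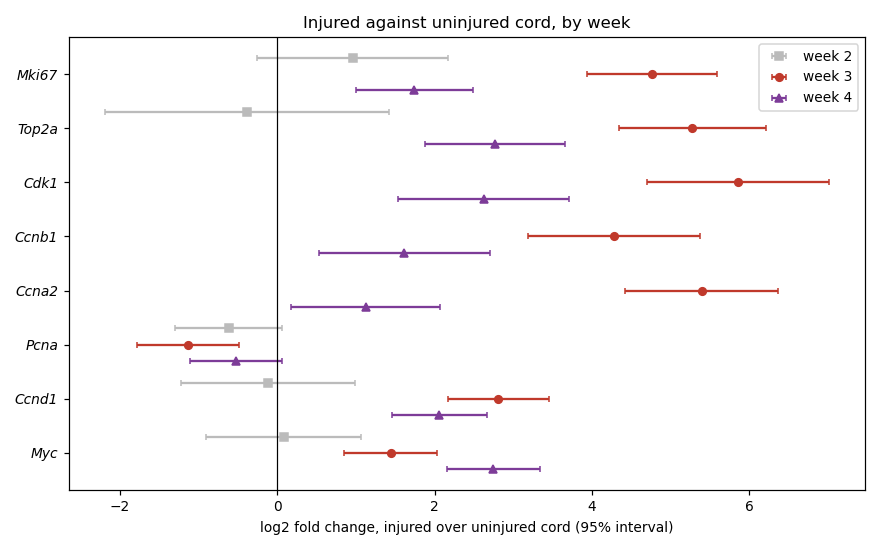
Log2 fold change of injured over uninjured cord on the x axis, with 95% intervals from the edgeR fit, for each gene on the y axis at weeks 2, 3 and 4. Week 2 is not drawn for Cdk1, Ccnb1 and Ccna2, which had at most 3 counts in a group. The 5 mitotic and S/G2 genes lie further from 0 at week 3 than at week 4, and Myc lies further from 0 at week 4.

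The change of the injury effect between weeks was tested itself, as week 4 minus week 3. It was negative and called for 5 genes and positive and called for 1, Myc, where 18.7% of all genes were called, 11.5% positive and 7.26% negative. The log2 differences were -4.27 for Ccna2 (SE 0.73, edgeR adjusted p = 1.73e-05), -3.23 for Cdk1 (0.91, edgeR adjusted p = 0.00821) and -3.02 for Mki67 (0.53, edgeR adjusted p = 2.45e-05). Those of Ccnb1 and Top2a were -2.67 (0.80, edgeR adjusted p = 0.0138) and -2.51 (0.65, edgeR adjusted p = 0.00337). The excess in injured cord was thus smaller at week 4 for all 5 genes of S, G2 and mitosis. Without injured week 3 replicate 2 the Ccnb1 difference missed the threshold (edgeR adjusted p = 0.0642), and without uninjured week 4 replicate 2 so did that of Cdk1 (edgeR adjusted p = 0.0535). Myc differed by 1.31 (SE 0.41, edgeR adjusted p = 0.0183), which was lost with injured week 3 replicate 3 in the fit (edgeR adjusted p = 0.444), without the low count filter (edgeR adjusted p = 0.0778), and without injured week 4 replicate 3 or 4 or uninjured week 4 replicate 3 (edgeR adjusted p = 0.0633, 0.0631 and 0.104). For Ccnd1 and Pcna the differences of -0.75 (95% interval -1.60 to 0.10) and 0.61 (-0.24 to 1.47) did not pass, although that of Ccnd1 passed without the week 2 libraries (edgeR adjusted p = 0.0274) and with DESeq2 (adjusted p = 0.000998). Those fits called 34.1% and 28.9% of all genes, in place of 18.7%.

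Within injured cord, week 4 was below week 3 for 6 genes and above it for 0, where 21.6% of all genes were called, 13.8% higher and 7.79% lower. The 2 groups did not overlap for any of the 8, nor for 40.6% of all genes. Mki67 averaged 47.4 ± 6.85 CPM at week 4 and 340 ± 73.8 CPM at week 3 (SD, n = 4 and 3), a log2 fold change of -2.84 (SE 0.37, edgeR adjusted p = 5.97e-08). Ccna2 fell as far, by 2.84 on the log2 scale (SE 0.38, edgeR adjusted p = 1.54e-07), and Ccnd1 least among the 6, by 1.24 (SE 0.30, edgeR adjusted p = 0.0017). Pcna averaged 127.4 ± 20.1 CPM at week 4 and 74.2 ± 13.7 CPM at week 3 (SD, n = 4 and 3), without overlap between the libraries in the fit, and missed the threshold (log2 fold change 0.78, 95% interval 0.14 to 1.42, edgeR adjusted p = 0.0755). Without the shallow week 2 libraries in the fit it passed (edgeR adjusted p = 0.00274). Myc averaged 241 ± 22.9 CPM at week 4 and 196 ± 8.78 CPM at week 3 (SD, n = 4 and 3), a log2 fold change of 0.30 that did not pass (95% interval -0.30 to 0.89).

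Between the uninjured groups of weeks 4 and 3, 0 of the 8 genes were called, where 0.525% of all genes were, 0.441% higher and 0.0840% lower (edgeR). Ccna2 and Myc did not overlap between the weeks, like 12.1% of all genes. At an unadjusted p under 0.05 there were 2, Ccna2 and Myc, where 14.3% of all genes were under it. DESeq2 and limma voom each called 1, Myc, where they called 5.16% and 19.8% of all genes. Myc had 35.1, 48.1, 19.5 and 39.8 CPM at week 4, against 60.8, 77.4, 72.6 and 78.6 CPM at week 3. All week 4 libraries were below all week 3 ones, with a log2 fold change of -1.01 (SE 0.28, edgeR adjusted p = 0.0885). The fit without the week 2 libraries called it (edgeR adjusted p = 0.00262), and 11.9% of all genes. Mki67 averaged 14.2 ± 7.39 CPM at week 4 and 12.7 ± 7.13 CPM at week 3 (SD, n = 4 each), with a 95% interval of -0.60 to 0.95 for the log2 fold change.

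At week 2, 0 of the 8 genes differed between injured and uninjured cord by edgeR, 0 at an unadjusted p under 0.05, and 0 by DESeq2 and by limma voom, where 3.37% of all genes were called by edgeR, 1.20% higher and 2.16% lower. An unadjusted p under 0.05 was found for 20.4% of all genes, and DESeq2 called 11.2% and limma voom 0 of them. Leaving out injured week 2 replicate 2 gave 1 call, Pcna, lower in injured cord (log2 fold change -1.17, edgeR adjusted p = 0.0457). Mki67 had 0, 17.4, 49.3 and 40.2 CPM in injured week 2 libraries, from 46 counts, and 8.17, 10.8, 35.7 and 0 CPM in uninjured ones, from 20 counts. The 2 groups overlapped, and the 95% interval of the log2 fold change ran from -0.25 to 2.17. Ccnd1 had 0, 32.3, 18.5 and 8.03 CPM in injured libraries against 0, 43.2, 9.52 and 25.0 CPM in uninjured ones, and Myc 0, 29.8, 37.0 and 16.1 CPM against 16.3, 10.8, 16.7 and 54.1 CPM. The 95% intervals of the log2 fold changes were -1.22 to 0.98 for Ccnd1 and -0.90 to 1.07 for Myc. Top2a had 0, 27.3, 0 and 2.68 CPM in injured week 2 libraries against 4.08, 39.6, 0 and 4.16 CPM in uninjured ones, where 1 library of each group held most of its counts (95% interval of the log2 fold change -2.19 to 1.42). Pcna was the best covered of the 8 at week 2, with 152 counts in injured and 196 in uninjured libraries, and its log2 fold change was -0.62 (95% interval -1.30 to 0.06).

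The shallow week 2 libraries were set against the counts they would hold at another group's level. At the injured week 3 level, the 4 injured week 2 libraries would hold 475 counts of Mki67, 226 of Top2a and 734 of Ccnd1, and they held 46, 12 and 25. At the uninjured week 3 level they would hold 17.8, 5.83 and 104.7. For these 3 genes a level like that of injured week 3 was within reach of this depth. For Cdk1, Ccnb1 and Ccna2 the injured week 2 libraries held 1, 3 and 1 counts, where the injured week 3 level gives 35.6, 38.0 and 36.3. The uninjured week 2 libraries held 0 counts of all 3, where the uninjured week 3 level gives 0.591, 1.67 and 0.717. At that low level the week 2 counts of these 3 genes cannot show a difference.

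**Figure D4:**
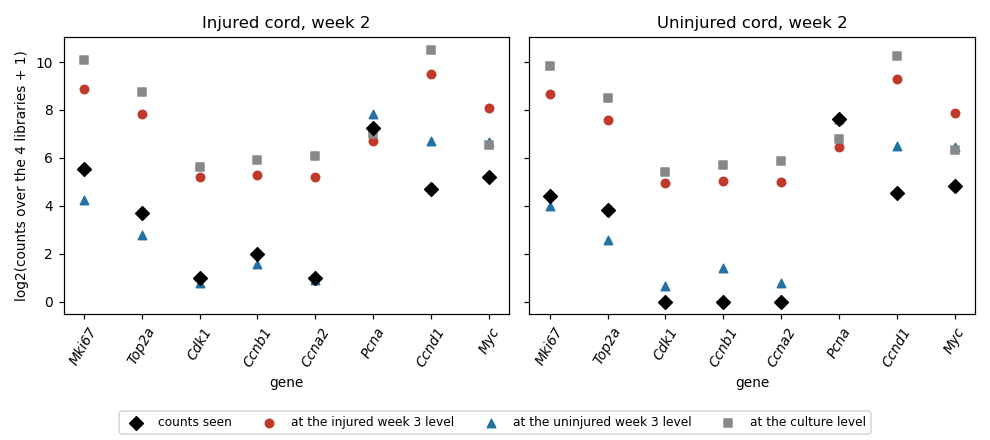
Counts of each gene over the 4 week 2 libraries of injured cord (left) and uninjured cord (right) as log2(counts + 1), with the counts those libraries would hold at the mean level of injured week 3, uninjured week 3 and culture. In injured cord, the 46 counts of Mki67 lie nearer to the 17.8 of the uninjured week 3 level than to the 475 of the injured week 3 level.

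Within injured cord, week 3 was above week 2 for 7 genes and below it for 0, where 44.7% of all genes were called, 24.7% higher and 20.0% lower. Those 7 did not overlap between the weeks, like 34.5% of all genes. The log2 fold changes were 3.44 for Mki67 (SE 0.44, edgeR adjusted p = 2.81e-08), 4.91 for Ccnd1 (0.41, edgeR adjusted p = 4.12e-13) and 2.99 for Myc (0.38, edgeR adjusted p = 1.79e-08). The calls of Cdk1, Ccnb1 and Ccna2 rest on 1, 3 and 1 counts at week 2. Pcna did not pass (log2 fold change -0.46, 95% interval -1.16 to 0.23). Within uninjured cord 2 genes were called, both higher, where 20.3% of all genes were called, 12.2% higher and 8.12% lower. There 4 of the 8, and 20.0% of all genes, did not overlap. Among these 4, Ccnb1 and Ccna2 had 0 counts in uninjured week 2. At the uninjured week 3 level those libraries would hold only 1.67 and 0.717, so the separation of these genes cannot be told from low depth. Ccnd1 averaged 74.9 ± 11.3 CPM at week 3 and 19.4 ± 18.9 CPM at week 2, and Myc 72.3 ± 8.14 and 24.5 ± 19.9 CPM (SD, n = 4 each). Their log2 fold changes were 1.98 and 1.63 (edgeR adjusted p = 0.000738 and 0.00281), and in a fit of those 2 groups alone neither passed (edgeR adjusted p = 0.0914 and 0.135). The median over all genes was itself 0.30 in injured and 0.30 in uninjured cord for week 3 against week 2. With RLE factors these medians were 0.15 and -0.11.

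The injury effect itself was larger at week 3 than at week 2 for 3 genes and smaller for 0, where 30.4% of all genes were called, 12.7% larger and 17.7% smaller. Cdk1, Ccnb1 and Ccna2 had 1, 3 and 1 counts in injured week 2 and 0 in uninjured week 2. Those are too few to show a difference in this fit, with SE of 12.1, 3.68 and 6.79 on the log2 scale. The log2 difference was 5.66 for Top2a (SE 1.09, edgeR adjusted p = 6.6e-05), 3.80 for Mki67 (0.77, edgeR adjusted p = 0.000139) and 2.93 for Ccnd1 (0.64, edgeR adjusted p = 0.00037). The Top2a value depends on uninjured week 2 replicate 2, which had 39.6 CPM where the others had 0 to 4.16, and without it was 3.35 (edgeR adjusted p = 0.199). Without uninjured week 2 replicate 3 that of Mki67 was 2.65 (edgeR adjusted p = 0.0811). With limma voom, Mki67 and Ccnd1 missed the threshold (adjusted p = 0.059 and 0.0677). That of Myc was 1.36 and missed the threshold (SE 0.58, edgeR adjusted p = 0.0695), but passed with DESeq2 (adjusted p = 0.00213) and in edgeR fits with RLE or upper quartile factors (adjusted p = 0.0228 and 0.037). Those fits called 40.7%, 31.3% and 30.9% of all genes, in place of 30.4%. The part of the low and uneven week 2 depth in these differences was not tested.

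Culture was compared with each exposed group in the same fit, and these comparisons share the 4 culture libraries. In the samples exposed to uninjured cord the genes of S, G2 and mitosis were nearly silent beside culture. Mki67 averaged 12.7 ± 7.13 CPM in uninjured week 3 and 14.2 ± 7.39 CPM in uninjured week 4, against 769 ± 39.8 CPM in culture (SD, n = 4 each), or 1.65% and 1.85% of the culture mean. Top2a, Cdk1 and Ccna2 in uninjured week 3 were at 1.35%, 1.43% and 1.26% of their culture means, Ccnb1 at 3.29% and Ccnd1 at 7.17%. At week 2, 7 genes were lower than culture and 1 higher, where 42.1% of all genes were called, 22.1% lower and 20.0% higher. At week 3 the calls were 6 lower and 1 higher, where 49.9% of all genes were called, 23.9% lower and 26.0% higher. At week 4 they were 7 lower and 1 higher, where 46.3% were called, 20.0% lower and 26.3% higher. Without overlap with culture were all 8 genes at week 2 (36.3% of all genes tested), 7 at week 3 (62.6%) and 8 at week 4 (61.7%).

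The log2 fold changes of uninjured week 3 over culture were -5.94 for Mki67, -6.21 for Top2a, -6.31 for Cdk1, -4.94 for Ccnb1, -6.28 for Ccna2 and -3.80 for Ccnd1. Their SE ran from 0.32 to 0.55, and the largest edgeR adjusted p among the 6 was 1.03e-10. At week 2, uninjured libraries held 0 counts of Cdk1, Ccnb1 and Ccna2. Set against a group floor of 3 counts these were at least 13.8-fold, 16.9-fold and 18.9-fold lower than culture.

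Pcna was the 1 gene called above culture in uninjured cord. It averaged 154 ± 53.2, 163 ± 26.3 and 183 ± 51.4 CPM in uninjured weeks 2, 3 and 4, against 91.7 ± 4.60 CPM in culture (SD, n = 4 each), and every uninjured library exceeded every culture library. The log2 fold changes were 0.775, 0.832 and 0.997 (edgeR adjusted p = 0.0408, 0.0144 and 0.00391). With injured week 3 replicate 3 in the fit all 3 missed the threshold (edgeR adjusted p = 0.11, 0.151 and 0.0711). The week 3 value also missed it with RLE factors (edgeR adjusted p = 0.0557) or without the low count filter (edgeR adjusted p = 0.0762). Leaving out culture replicate 2, 3 or 4 or uninjured week 3 replicate 3 had the same effect there, with edgeR adjusted p-values of 0.0625 to 0.0987. The week 2 value missed it without culture replicate 1, 3 or 4 or uninjured week 2 replicate 3 (edgeR adjusted p from 0.0634 to 0.215), without the filter (edgeR adjusted p = 0.0634) and with limma voom (adjusted p = 0.0978).

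In injured week 3, by contrast, Mki67, Top2a, Cdk1, Ccnb1, Ccna2 and Ccnd1 stood at 44.2% to 72.9% of their culture means. Mki67 averaged 340 ± 73.8 CPM in injured week 3, against 769 ± 39.8 CPM in culture (SD, n = 3 and 4), a log2 fold change of -1.18 (SE 0.37, edgeR adjusted p = 0.0172). Ccnd1 averaged 525 ± 39.9 CPM against 1044 ± 59.8 CPM in culture (SD, n = 3 and 4), a log2 fold change of -0.99 (SE 0.31, edgeR adjusted p = 0.0183). Cdk1 averaged 25.5 ± 7.26 CPM against 34.9 ± 3.86 CPM in culture, with overlap, and its 95% interval ran from -1.22 to 0.31 on the log2 scale. Top2a, Ccna2, Ccnb1 and Pcna did not pass either, with log2 fold changes of -0.93, -0.88, -0.65 and -0.31. In all, 2 genes were lower and 1, Myc, higher, where 19.2% of all genes were called, 10.0% lower and 9.19% higher. The groups did not overlap for 5 of the 8 and for 48.5% of all genes.

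These calls near culture moved with the fit, while the direction of each did not. Without injured week 3 replicate 1 or replicate 2, 1 gene was called, Myc. Mki67 missed the threshold there (edgeR adjusted p = 0.0817 and 0.0861), as did Ccnd1 (edgeR adjusted p = 0.0786 and 0.0583). The share of all genes called was not kept for fits with a library left out, so a general loss of calls cannot be told apart. Without the week 2 libraries 5 were called, with limma voom 7, and with replicate 3 in the fit 0, where those fits called 37.1%, 45.6% and 13.2% of all genes.

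In injured week 4 the distance to culture was wider, with 6 genes lower and 1 higher, where 33.6% of all genes were called, 15.5% lower and 18.1% higher. None of the 8 overlapped with culture there, like 50.4% of all genes. Mki67 stood at 6.16% of its culture mean, Ccna2 at 7.35%, Top2a at 9.40%, Ccnb1 at 14.5%, Cdk1 at 17.7% and Ccnd1 at 21.2%. Their log2 fold changes ran from -4.02 for Mki67 (SE 0.38, edgeR adjusted p = 3.31e-12) to -2.24 for Ccnd1 (0.30, edgeR adjusted p = 2.82e-08). At week 2, 7 of 8 were lower in injured cord than in culture and 0 higher, where 45.0% of all genes were called, 25.7% lower and 19.3% higher. The groups did not overlap for 7 of the 8 and for 36.4% of all genes. The log2 fold change of Mki67 was -4.62 (SE 0.44, edgeR adjusted p = 8.46e-12), and the calls of Cdk1, Ccnb1 and Ccna2 again rest on 1, 3 and 1 counts.

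Pcna averaged 127.4 ± 20.1 CPM in injured week 4, against 91.7 ± 4.60 CPM in culture (SD, n = 4 each), without overlap. Its log2 fold change of 0.47 (95% interval -0.11 to 1.05) missed the threshold (edgeR adjusted p = 0.222), but passed in the edgeR fits of those groups alone and without week 2 (adjusted p = 0.00561 and 0.0298) and with limma voom (adjusted p = 0.00966). Those fits called 58.0%, 52.3% and 60.4% of all genes, in place of 33.6%.

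Myc was called above culture in injured cord at weeks 3 and 4. It averaged 196 ± 8.78 CPM in injured week 3 and 241 ± 22.9 CPM in injured week 4, against 66.3 ± 5.68 CPM in culture (SD, n = 3, 4 and 4), that is 295% and 363% of the culture mean. No injured library in the fit at these weeks was below 187 CPM and no culture library above 69.5 CPM. The log2 fold changes were 1.56 (SE 0.29, edgeR adjusted p = 6.76e-05) and 1.86 (0.28, edgeR adjusted p = 4.87e-07), and neither passed with replicate 3 in the fit as a true 0 (edgeR adjusted p = 0.422 and 0.125). In uninjured week 3 it stood at 72.3 ± 8.14 CPM, overlapping culture (95% interval of the log2 fold change -0.43 to 0.68). In uninjured week 4 it was lower than culture at 35.6 ± 12.01 CPM (SD, n = 4), a log2 fold change of -0.89 (SE 0.28, edgeR adjusted p = 0.00844, and 0.303 with replicate 3 in the fit). At week 2 it was lower than culture in injured and in uninjured cord, by log2 fold changes of -1.43 and -1.51 (edgeR adjusted p = 0.00174 and 0.00185, and 0.175 and 0.204 with replicate 3 in the fit).

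**Figure D5:**
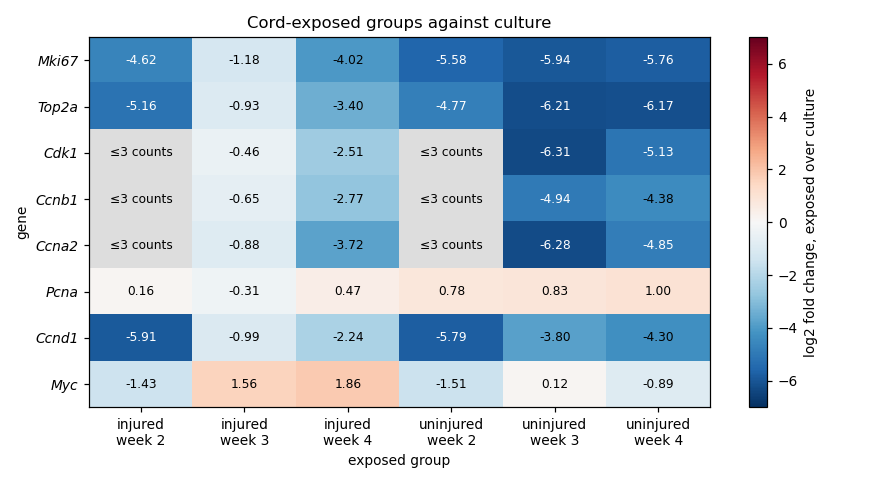
Log2 fold change of each exposed group over culture, by group on the x axis and gene on the y axis, blue where lower and red where higher than culture. Grey cells mark groups with at most 3 counts. Myc is red in injured weeks 3 and 4, at 1.56 and 1.86, while Mki67, Top2a, Cdk1, Ccnb1 and Ccna2 are blue there and darkest in uninjured week 3.

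The order of mean levels is given without the shallow week 2 groups. For Mki67, Top2a, Cdk1, Ccnb1, Ccna2 and Ccnd1 it was culture, injured week 3, injured week 4, and then the uninjured groups of weeks 4 and 3 in either order, which overlapped each other for all but Ccna2. Culture and injured week 3 overlapped for Cdk1 and Ccnb1, and injured and uninjured week 4 for Ccnb1 and Ccna2. For Myc the order was injured week 4, injured week 3, uninjured week 3, culture and uninjured week 4, with overlap between uninjured week 3 and culture and a difference between the injured weeks that did not pass. For Pcna it was uninjured week 4, uninjured week 3, injured week 4, culture and injured week 3, where neighbours overlapped except injured week 4 and culture. Its profile of means spanned 1.26 log2 units over these 5 groups. The span was 5.98 for Mki67, 6.14 for Top2a and 2.80 for Myc.

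Profiles over the same 5 groups, each gene's mean log2 CPM less its average, were compared by their mean absolute difference. Of the 28 pairs, Mki67 and Top2a were the most alike, at 0.23 log2 units, followed by Ccnb1 and Ccna2 at 0.26, Cdk1 and Ccnb1 at 0.32 and Cdk1 and Ccna2 at 0.33. Ccnd1 was nearest to Cdk1 and Ccnb1, at 0.40 and 0.41, and 0.83 from Mki67. The prior count of 2 draws in the profiles of genes with few counts. The profile of Cdk1 spanned 4.98 log2 units, where its fitted log2 fold change of uninjured week 3 over culture was -6.31. For Ccnd1 the span was 4.32, where the fitted value of uninjured week 4 over culture was -4.30. Distances to Cdk1, Ccnb1 and Ccna2, and their order, thus depend on this setting. Myc was close to no other member, the smallest distances being 1.20 to Pcna and 1.21 to Ccnd1. Myc and Pcna did not run alike, and the narrow span of Pcna, 1.26, keeps their distance small. Around their averages they stood at 1.04 and -0.70 in injured week 3, -0.39 and 0.44 in uninjured week 3, and -1.47 and 0.57 in uninjured week 4. They were on the same side in injured week 4 (1.33 and 0.08) and culture (-0.51 and -0.38). Top2a and Pcna were the furthest apart, at 2.70. The 5 groups share their libraries across genes, so these distances describe the profiles and carry no test.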

How the data were processed

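RNA of 28 libraries was isolated with Trizol and prepared with a strand-specific kit for very small inputs, per the labels' protocols. The authors deposited raw, unscaled gene counts as a single table. Upstream tools, per the submitters' processing notes, were featureCounts 1.5.1, STAR 2.5.1, StringTie 1.3.3, Picard, Trim Galore 0.4.1 and FastQC 0.11.5. The notes also name GRCm38, a mouse build, although the identifiers are rat. The genome aligned to is therefore unsettled. Annotation, strand setting and handling of duplicate or shared reads: not given in the sources used here.

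Counts were tested by the quasi-likelihood test of edgeR 4.0.16 (R 4.3.3), fitted robustly with TMM factors after filterByExpr. The fit held 27 libraries, a mean per group, 20 residual degrees of freedom and 15 comparisons. Injured week 3 replicate 3 was left out because its zeros count as missing and a count model takes no missing value. P-values were adjusted over 14282 genes by the Benjamini-Hochberg method and called under 0.05. An SE is the log2 fold change over the root of its F statistic. CPM use TMM-scaled totals, and the left-out library was scaled to the same reference library. The script was tested on simulated counts. Alternatives were DESeq2 1.42.0, limma 3.58.1 (voom, weighted by library quality), RLE and upper quartile factors, an unfiltered table, all 28 libraries, no week 2 libraries, the compared groups alone and each library left out. For profiles, log2 CPM took a prior count of 2.

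All 8 genes were to be named. The 6 pathway lists and 9 cell type marker lists written for this work, 219 entries, and the search for genes of similar profile were not used, since identifiers could not be paired with symbols. Genes, lists and tests were chosen with earlier results of these data known. Replicate numbers follow deposition order and pair nothing. Counts carry no molecular identifiers, so a floor for 0 counts covers counting error only.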

Additional observations from a re-analysis of the deposited data

Results flagged for a closer look

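Of 52 groups of 4 libraries tested by Dixon's ratio, 8 had a library apart from the other 3, where chance gives about 2.6 (1 in 20). That rate holds for normally distributed values, which CPM from few counts need not follow, and the genes share libraries. An excess over chance is thus not shown. For 3 of the 8 the other libraries had 0 counts, which fixes the ratio. These were Cdk1 at 2.49 CPM in injured week 2 replicate 2, Ccnb1 at 8.03 CPM in injured week 2 replicate 4 and Ccna2 at 2.05 CPM in injured week 2 replicate 3, which are 1, 3 and 1 counts. Top2a was at 27.3 CPM in injured week 2 replicate 2, where the others had 0 to 2.68, and at 39.6 CPM in uninjured week 2 replicate 2, where the others had 0 to 4.16. In uninjured week 2, Pcna was at 233 CPM in replicate 3, against 118.4 to 136.7 in the others, and Myc at 54.1 CPM in replicate 4, against 10.8 to 16.7. The 1 case outside week 2 was Myc in culture replicate 4, at 57.8 CPM where the others had 69.0 to 69.5.

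The injury effect differed between weeks by a test of the difference (edgeR adjusted p under 0.05). From week 3 to week 4 it changed by -3.02 log2 units for Mki67, -2.51 for Top2a, -3.23 for Cdk1, -2.67 for Ccnb1, -4.27 for Ccna2 and 1.31 for Myc. From week 2 to week 3 it changed by 3.80 for Mki67, 5.66 for Top2a and 2.93 for Ccnd1, where low depth coincides with week 2.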

How the results depend on the processing

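For log2 fold changes of single genes with more than 3 counts in each group, the alternatives gave 1655 values. Of these, 1514 kept direction and side of the threshold, 48 lost the call, 44 gained one and 49 turned direction, of which 0 had been called. Week 2 depth limits every value that uses those libraries. No paired analysis was possible because the labels carry no replicate numbers.

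The count of genes called in injured week 3 against culture, 3, was 0 with all 28 libraries, 7 with the compared groups alone, 7 with limma voom and 5 without week 2 (13.2%, 52.0%, 45.6% and 37.1% of all genes, against 19.2%), and 1 to 3 with 1 library left out. For the injury effect at week 3 minus week 2, DESeq2 called 6 in place of 3 (40.7% of all genes in place of 30.4%). Myc was among the gained genes (DESeq2 adjusted p = 0.00213). The other gains were among Cdk1, Ccnb1 and Ccna2, which had at most 3 counts in each week 2 group. In uninjured cord, week 3 against week 2 gave 1 with all 28 libraries and 0 of 4 tested with the compared groups alone in place of 2 (9.69% and 4.87% of all genes in place of 20.3%). Week 4 against week 3 gave 1 with DESeq2, limma voom, the compared groups alone or no week 2 libraries (5.16%, 19.8%, 3.71% and 11.9% of all genes), and 0 to 1 with a library left out. Injured against uninjured at week 2 gave 0 to 1 with a library left out. For fits with a library left out, the share of all genes called was not kept. The cause was not tested.

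Of log2 fold changes that missed the threshold, that of Myc in uninjured week 3 against culture turned to -0.062 with all 28 libraries, -0.10 with DESeq2, -0.086 without a filter, -0.099 with RLE and -0.0074 with upper quartile factors (-0.096 to 0.14 with a library left out). Pcna in uninjured week 3 against week 2 turned to -0.11 with all 28 libraries, -0.34 with DESeq2, -0.27 with the compared groups alone, -0.083 without a filter, -0.35 with RLE and -0.26 with upper quartile factors (-0.21 to 0.15). With limma voom, Ccnd1 at week 2 in injured against uninjured turned to 0.34 (-0.70 to 0.64 with a library left out), Mki67 in uninjured week 3 against week 2 to 0.42 (-0.91 to 0.73) and in week 4 against week 3 to -0.20 (-0.044 to 0.58), Pcna in injured week 2 against culture to -0.062 (-0.42 to 0.38), and Top2a in uninjured week 4 against week 3 to -0.24 (-0.17 to 0.41). Myc at week 2 in injured against uninjured turned to -0.031 with all 28 libraries (-0.28 to 0.75). With a library left out, Pcna in injured week 3 against week 2 ran from -0.75 to 0.099, its injury effect at week 3 minus week 2 from -0.76 to 0.040, Top2a in injured against uninjured week 2 from -3.42 to 1.92 and in uninjured week 3 against week 2 from -2.22 to 0.87.

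RLE factors moved the median log2 fold change of all genes in injured against uninjured week 3 to 0.26, from 0.0070 with TMM, and in uninjured week 3 against culture to -0.21, from 0.0079. With TMM the median was off 0 in week 2 against culture, at -0.28 in injured and -0.20 in uninjured cord. With RLE factors it was -0.10 and -0.0059.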
